A study of Caenorhabditis elegans with 58 samples.

Results

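The strain seed_mut (MCJ13, genotype mir-35(cdb2 cdb6)) of the nematode Caenorhabditis elegans carries an edited mir-35 gene in which, by its name, the seed was mutated. It was compared with the wild-type strain N2 in 12 of the 58 small-RNA libraries of the series, 3 of embryos and 3 of starved first-stage larvae (L1) from each strain, chosen by their titles and matched by replicate number. All were libraries of whole hermaphrodites grown in bulk liquid culture. Gravid worms were bleached, and their embryos were collected at once or held overnight in M9 with cholesterol at 20 °C without food, so the L1 larvae had hatched but never fed. The labels give both alleles cdb2 and cdb6 in seed_mut and do not say what each of them changes, and the edited sequence was not among the sources used here. The strain is a single edited line, and nothing says that replicates came from separate cultures, so p-values measure the spread between libraries. For the main edgeR fit this spread was estimated over 42 libraries of wild type and edited strains, not over these 12 alone. Whole animals were sequenced, so fewer cells of a type and less RNA per cell cannot be told apart.

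A microRNA (miRNA) is cut from a hairpin as a pair of strands, of which the guide is kept in an Argonaute protein and the passenger is mostly lost. The seed, near the 5′ end of the guide, pairs with target messages. The mir-35 family (mir-35 to mir-42) shares its seed, acts redundantly, is needed for embryonic development in C. elegans, and is known for high levels in embryos and for its loss by the time of hatching. In the annotation, 7 of the 8 family genes, mir-35 to mir-41, are neighbours and are known to come from a common transcript, while mir-42 lies apart from them. The question the strain addresses, by the title of the series, is whether the seed is needed for the timed loss of the family.

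Totals ranged from 8119837 to 16472748 miRNA counts per library (median 12169860), with spike-in RNAs at 0.0926 to 0.427 of those counts. Levels are given as CPM, counts relative to the library total, with TMM scaling factors, and log2 differences and adjusted p-values are from edgeR's quasi-likelihood test over 229 miRNA arms with Benjamini-Hochberg adjustment and a threshold of 0.05. Replicates of a group differed by more than counting error. Embryo replicate 3 of both strains stood apart. The spike-in miR166a made up 67.9% of spike-in counts in the wild-type library and 73.1% in the seed_mut library, against 41.7 to 54.8% in the other 10. Wild-type L1 replicate 1 held more of the mir-35 family than the other L1 libraries, 3.35% of counts against 0.680 to 1.03% in the other 5. What these libraries change is given beside the results they touch.

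The guide of the edited gene was counted as a sequence of its own, which checks the label of the strain. By plain library totals, the lowest seed_mut embryo library held 209.8 CPM of it and the highest of 18 embryo libraries of other strains 2.60 CPM, a ratio of 80.6. In L1 the lowest seed_mut library held 81.4 CPM and the highest of 18 others 0.817 CPM, a ratio of 99.6. The guide of seed_mut was therefore far above the level at which its sequence appeared elsewhere. The passenger sequence was not such a check. In embryos the lowest seed_mut library held 11.7 CPM of it, slightly less than the highest of the 18 others. In L1 it reached 1.78 to 2.85 CPM in seed_mut and up to 10.7 CPM in libraries of other strains.

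The mir-35 guide was far lower in seed_mut embryos than in wild-type embryos. Its level was 464, 283 and 216 CPM in seed_mut replicates 1 to 3. In wild type it was 130037, 155098 and 32570.5 CPM. The groups did not overlap, and the lowest wild-type value was replicate 3. The guide was the most abundant arm in wild-type replicates 1 and 2 and ranked 10 in replicate 3, while it ranked 56, 65 and 75 in seed_mut. The mean was 321 ± 129 CPM in seed_mut and 105902 ± 64731 CPM in wild type (SD, n = 3 each). The log2 difference was −8.37 (SE 0.82, edgeR adjusted p = 9.4e-10), which is 330 times lower. Of the 229 arms, mir-35 was the only one that passed in embryos, so that 0.437% of arms passed.

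**Figure D1:**
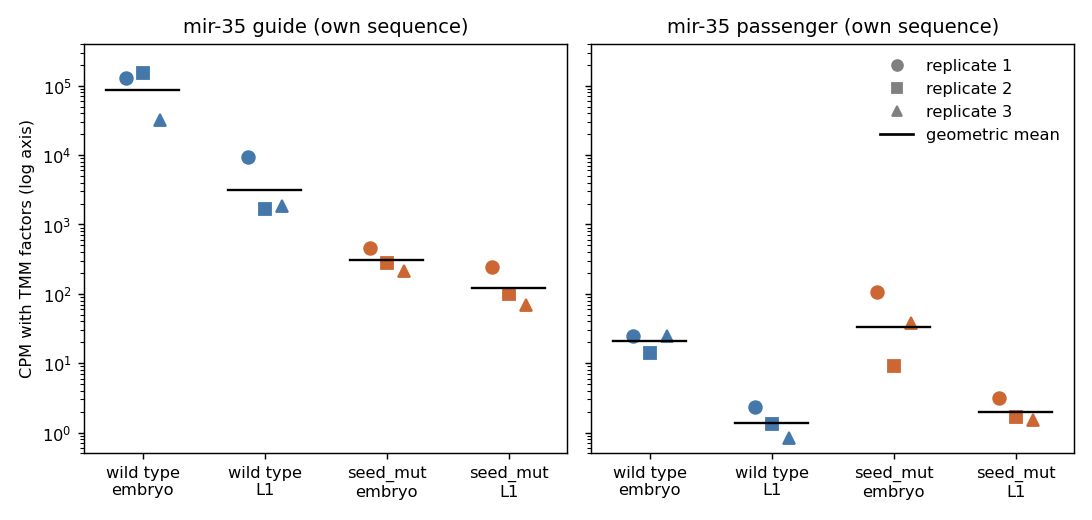
Level of the mir-35 guide (left) and passenger (right) in each of the 12 libraries, counted from each strain's own sequence, in CPM with TMM factors on a log axis; symbols mark replicate numbers and bars the geometric mean of 3 libraries. The seed_mut guide lies at 216 to 464 CPM in embryos and 68.7 to 245 CPM in L1, below every wild-type library of either stage.

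The passenger of the same hairpin did not show such a deficit in seed_mut embryos. It measured 108, 9.16 and 37.7 CPM in seed_mut and 25.0, 14.1 and 24.8 CPM in wild type. The seed_mut values spanned the wild-type ones, with replicates 1 and 3 above and replicate 2 below, and replicate 2 lay at the highest level its sequence had in other strains. The log2 difference was 1.28 (95% interval −0.08 to 2.63, edgeR adjusted p = 0.995), and it was 0.16 without seed_mut embryo replicate 1. Per 1000 guide counts, seed_mut embryos held 232, 32.4 and 175 passenger counts. Wild-type embryos held 0.192, 0.0908 and 0.760. All 3 seed_mut libraries were above all 3 wild-type libraries (exact permutation test, two-sided p = 0.1, the smallest that 3 against 3 allows). The passengers of mir-36 to mir-41 did not show this. Summed over these hairpins, they stood at 13.8 ± 6.68 per 1000 guide counts in seed_mut embryos and 11.5 ± 2.79 in wild type (SD, n = 3 each, exact permutation p = 0.7). Within this sum, mir-41_5p* had more counts than the mir-41 guide in every embryo library of both strains. The mir-35 guide made up 81.2, 96.9 and 85.1% of the counts of its hairpin in seed_mut embryos, against at least 99.9% in wild type.

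In L1 the mir-35 guide was again lower in seed_mut, by a smaller factor. Its level was 245, 101 and 68.7 CPM in seed_mut and 9514, 1675 and 1851 CPM in wild type. The groups did not overlap, and replicate 1 was the highest of its group in both strains. The log2 difference was −4.97 (SE 0.70, edgeR adjusted p = 6.4e-06), or 31.4 times lower. It was −3.68 without wild-type L1 replicate 1 and −5.68 without seed_mut L1 replicate 1, and passed in both cases. As in embryos, mir-35 was the only arm of 229 (0.437%) to pass. Adding up all mir-35 sequences in each library gave −2.23 (edgeR adjusted p = 0.0632). This sum includes guide sequences of other alleles counted in seed_mut L1. By library totals, the wild-type sequence stood at 224, 244 and 190 CPM and the seed_rev sequence at 248, 726 and 174 CPM. The seed_rev_no_bulge sequence stood at 284, 747 and 201 CPM, and the remaining ones were scarcer. Each of the sequences named was above the strain's own guide in the same library, at 219, 123 and 81.4 CPM.

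The passenger in L1 was at the background of its sequence in both strains. In seed_mut L1 its deposited counts were 29, 25 and 17.5, or 0.0901 to 0.107 of the counts of the seed_rev passenger sequence in the same library, and in the wild-type libraries, which lack both alleles, this ratio was 0.0872 to 0.107. In seed_mut embryos it was 0.444 to 5.27. The wild-type passenger sequence had 13 to 27 counts in wild-type L1 and 8 to 29 in seed_mut L1, where its gene had been edited. No level of the passenger can therefore be given for L1 in either strain. Its drop from embryo to L1 passed in seed_mut (log2 −4.61, edgeR adjusted p = 1.2e-05) and in wild type (−3.83, adjusted p = 8.3e-05), with the L1 end at that background. Without seed_mut embryo replicate 1 the seed_mut value was −3.47.

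From embryo to L1, the seed_mut guide kept a larger share of its embryo level than the wild-type guide did. L1 held 52.8, 35.7 and 31.8% of the embryo level in seed_mut, pair by pair of replicate numbers. In wild type it held 7.32, 1.08 and 5.68%. Every seed_mut pair was above every wild-type pair. The wild-type guide sequence was also counted in L1 of edited strains, at 38.6 to 487 CPM by library totals. In these wild-type L1 libraries it was at 1996 to 11966 CPM by the same measure. The shares were not corrected for that background. The shares themselves depend on the scaling. Spike-in scaling moved the median log2 stage change of all arms by 0.97 in seed_mut and 0.61 in wild type. TMM factors without the family moved it by −0.39 and −0.17. In the fit the log2 difference between L1 and embryo was −1.22 in seed_mut (SE 0.60, edgeR adjusted p = 0.0944), or 43.1% of the embryo level with a 95% interval of 18.4 to 101%. The wild-type guide fell by 4.61 on the log2 scale (SE 0.69, edgeR adjusted p = 2.0e-06), to 4.10% (1.55 to 10.8%). Without wild-type L1 replicate 1 its log2 change was −5.88.

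The difference between the 2 changes was 3.39 on the log2 scale (SE 0.86, 95% interval 1.64 to 5.14), a factor of 10.5, with an edgeR adjusted p of 0.0864 over 229 arms (unadjusted 3.8e-04). It therefore missed the threshold. With the replicate number as a block, it was 3.43 and passed (adjusted p = 0.0152). In that fit the seed_mut change itself was −1.34 and passed as well (adjusted p = 0.0319). The block rests on a pairing read from these same data, as the labels do not say what a number shares. DESeq2 gave 3.35 (adjusted p = 0.0168). Without wild-type L1 replicate 1 it was 4.66 (adjusted p = 0.00106), without wild-type embryo replicate 3 it was 3.80 (0.0184), and without seed_mut L1 replicate 3 it was 3.71 (0.0414). It did not pass without any of the other 9 libraries (2.66 to 3.73, edgeR adjusted p up to 0.881). Nor did it pass without embryo replicate 3 of both strains (3.58, adjusted p = 0.102) or with the 12 libraries alone and no block. Thus the direction held in all these fits, while the call depended on the fit.

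**Figure D2:**
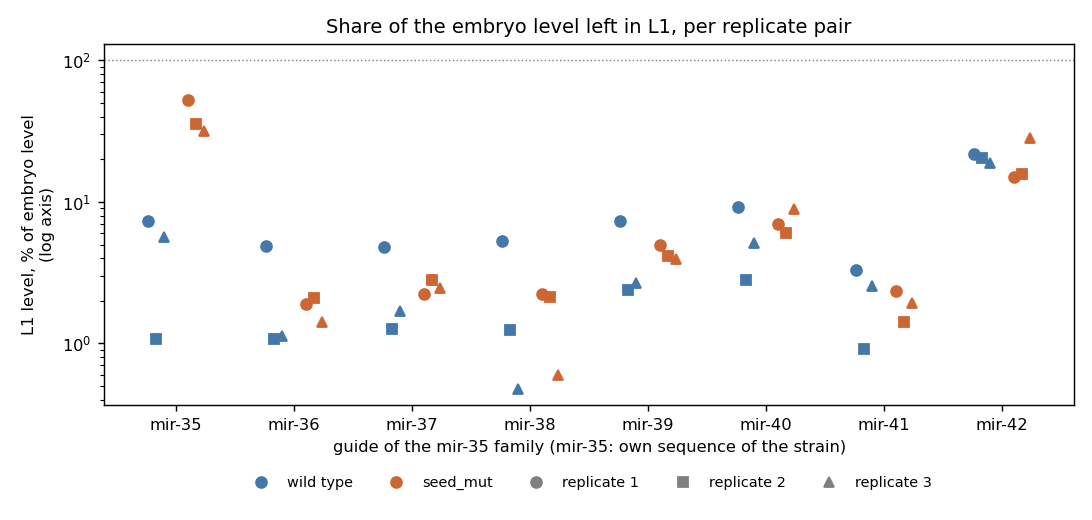
Level in L1 as a percentage of the level in embryos (log axis) for each guide of the mir-35 family, per replicate pair, with wild type in blue and seed_mut in orange; symbols mark replicate numbers. The mir-35 guide of seed_mut lies at 31.8 to 52.8%, above the 7 unedited guides in all 3 pairs, while the unedited guides of the 2 strains overlap.

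The 7 unedited guides of the family give a measure within the same animals. In seed_mut, the median share of the embryo level found in L1 over these guides was 2.36, 2.79 and 2.45% in the 3 pairs, and in wild type 5.27, 1.27 and 2.55%. All 7 were below mir-35 in each seed_mut pair. The margin was 3.58 to 7.53 times over the highest of mir-36 to mir-41. It was smaller over mir-42, at 3.54, 2.29 and 1.13 times. In wild type, 5, 2 and 6 of the 7 were below mir-35. Wild-type mir-35 thus lay among its relatives and the edited guide above them.

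The ratio of the mir-35 guide to the summed guides of mir-36 to mir-41 needs no scaling between libraries. In seed_mut embryos there were 1.54, 1.28 and 1.33 mir-35 counts per 1000 counts of these 6 guides. In seed_mut L1 there were 23.2, 13.1 and 13.2. The ratio was thus 15.1, 10.2 and 9.96 times higher in L1 than in embryos. In wild type it was 488, 608 and 169 in embryos and 586, 372 and 438 in L1, a factor of 1.20, 0.612 and 2.59. The log2 change of the ratio was 3.53 ± 0.33 in seed_mut and 0.31 ± 1.04 in wild type (SD, n = 3 each), a difference of 3.22 with no overlap (exact permutation test, two-sided p = 0.1, the smallest possible). The 6 summed guides kept 3.50, 3.49 and 3.20% of their embryo level in seed_mut and 6.09, 1.77 and 2.20% in wild type.

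**Figure D3:**
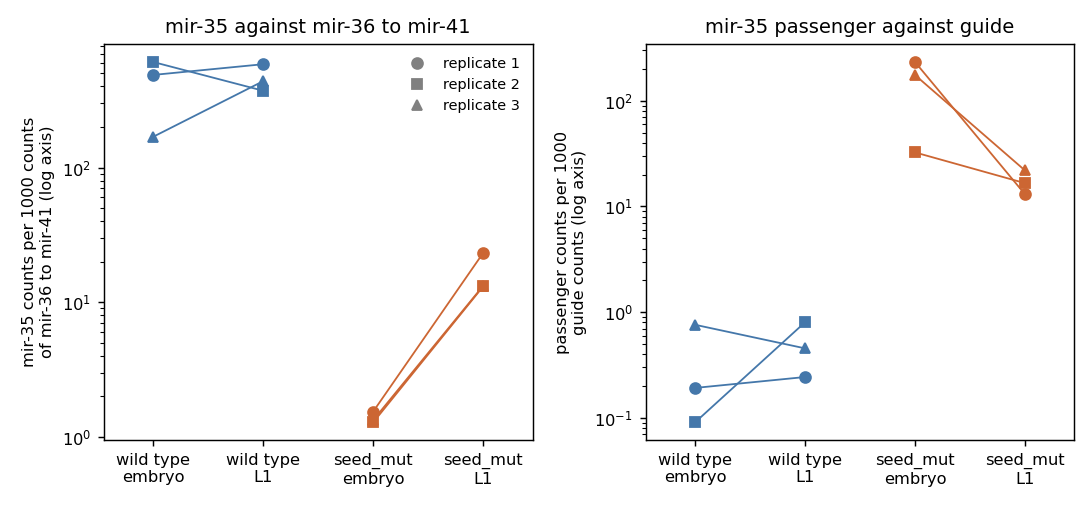
Ratios within each library on log axes, with lines joining the embryo and L1 libraries of the same replicate number: mir-35 guide counts per 1000 guide counts of mir-36 to mir-41 (left) and mir-35 passenger counts per 1000 mir-35 guide counts (right). On the left seed_mut goes from 1.28 to 1.54 in embryos to 13.1 to 23.2 in L1 while wild type has no common direction; on the right the L1 passenger counts are at background in both strains.

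The unedited members of the family did not pass a test between the strains. In embryos the log2 difference between seed_mut and wild type was −0.24 to 0.22 over the 7 guides (median −0.04, against 0.05 over all arms). In L1 it was −0.60 to 0.19 (median −0.15, against 0.11). For the change from embryo to L1 it was −0.44 to 0.28 (median −0.14, against 0.11). None of the 7 guides and none of the 8 passengers passed in any of these comparisons. The intervals were wide: for mir-37, the most abundant of these guides in embryos, the 95% interval was −1.19 to 1.15 in embryos and −1.32 to 1.02 in L1. For mir-39, the most abundant of them in L1, it was −0.94 to 0.67 in embryos and −0.90 to 0.70 in L1. Leaving out wild-type L1 replicate 1 moved the L1 median to 0.84 and the median for the change to 0.81.

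Level by level, the abundant relatives were close in embryos of both strains. The guide of mir-37 measured 144035, 99230 and 73809 CPM in seed_mut embryos and 120392, 118371 and 83091 CPM in wild type. The guide of mir-39 measured 95290, 79785 and 57971 CPM in seed_mut embryos and 96213, 85424 and 74456 CPM in wild type. The ranges of the strains overlapped for both guides. Together the 7 unedited guides made up 25.2 ± 8.07% of miRNA counts in seed_mut embryos and 23.7 ± 4.29% in wild type (SD, n = 3 each, exact permutation p = 0.8). In L1 they made up 0.894 ± 0.193% in seed_mut and 1.13 ± 0.893% in wild type (exact permutation p = 1). The mir-35 guide was 0.152, 0.125 and 0.131% of the family in seed_mut embryos and 2.15, 1.19 and 1.20% in seed_mut L1, against 14.3 to 37.5% in wild type at either stage.

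The drop of the unedited family from embryo to L1 was present in seed_mut. All 7 unedited guides fell in seed_mut, with log2 changes from −6.19 (mir-38) to −2.51 (mir-42) and a median of −5.34, and all 7 fell in wild type with a median of −5.22 (−6.18 without wild-type L1 replicate 1), while the median over all arms was −0.17 in seed_mut and −0.18 in wild type. The guide of mir-36 went from 31097, 20113 and 15890 CPM in seed_mut embryos to 592, 419 and 225 CPM in seed_mut L1. Embryo and L1 values were far apart in every pair. The log2 change was −5.76 in seed_mut and −5.33 in wild type (edgeR adjusted p = 9.3e-10 and 2.1e-09). The guide of mir-42 had the smallest fall of the 7, from 3905, 4144 and 1695 CPM to 582, 648 and 476 CPM in seed_mut. Of the 8 passengers, 7 fell in each strain, and mir-42_5p* was the one that did not pass (0.53 in seed_mut and −0.14 in wild type). The 7 include the mir-35 passenger, whose L1 end was at the background of its sequence. In seed_mut 25.8% of all arms passed as lower and in wild type 24.5%.

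Apart from mir-35, no arm passed between the strains in either stage or in the change between stages. At an unadjusted p under 0.05 there were 3 arms in embryos, 5 in L1 and 2 for the difference of changes, mir-35 included, where edgeR's adjusted test gave 1, 1 and 0 and DESeq2 gave 1, 1 and 1. The smallest adjusted p of an arm other than mir-35 was 0.995, 0.981 and 0.999. Among the 121 more abundant arms (mean log2 CPM of 5 or above), the median size of the log2 difference was 0.19 in embryos and 0.30 in L1. The 95% interval lay within 1 log2 unit of 0 for 36 of these arms in embryos, 35 in L1 and 3 for the difference of changes. It lay within 2 units for 115, 111 and 92. The intervals thus bound changes to under 4 times for most abundant arms within a stage, and to within 1 log2 unit for fewer of them. Any changes smaller than these bounds could have gone undetected.

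**Figure D4:**
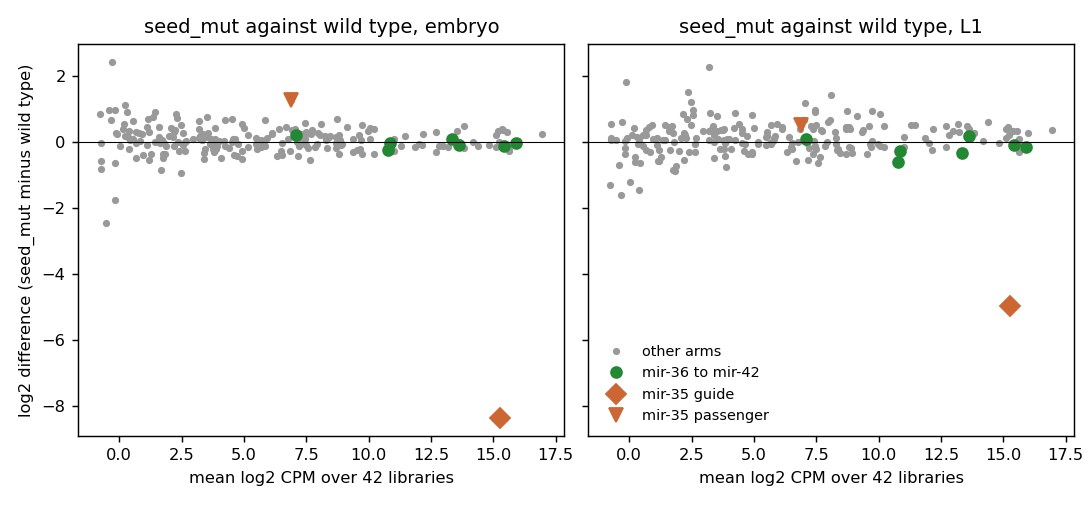
Log2 difference between seed_mut and wild type for 229 miRNA arms in embryos (left) and L1 (right), against the mean log2 CPM over the 42 libraries fitted together. The mir-35 guide stands at −8.37 and −4.97 and is the only arm that passed in each panel; the 7 unedited guides lie between −0.60 and 0.22.

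Among the 121 more abundant arms, those with the smallest unadjusted p are given as values only; some scarcer arms had smaller p-values, and none of them passed. In embryos, after the mir-35 passenger, they were mir-239a_3p* (log2 0.67), mir-86_3p* (0.52), mir-61 (0.34), mir-83 (−0.43), mir-83_5p* (−0.41), mir-63 (−0.37) and mir-66 (−0.31). In L1 they were mir-4813_5p (1.41), mir-230_3p (1.19), mir-86_3p* (0.93), mir-243_3p (0.91), mir-254 (0.79), mir-49_5p* (0.68), mir-73 (0.61) and mir-61 (0.49). The L1 levels of mir-73 were 21930, 17447 and 18278 CPM in seed_mut and 11733, 13163 and 12989 CPM in wild type. These groups did not overlap, and the adjusted p was 0.981. Nor did the L1 groups of mir-230_3p and mir-243_3p or the embryo groups of mir-66, and none of these arms passed. The share of all arms without overlap is not given here. For the change between stages, those of smallest p were lsy-6 (−1.03), mir-243_3p (0.83), mir-73 (0.72) and mir-54 (0.68). The others were mir-1820 (0.63), mir-248 (0.63), mir-65 (0.44) and mir-50 (0.44). For every arm named for this change the edgeR adjusted p was 0.999.

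The remodelling of the miRNA set between embryo and L1 was broad in seed_mut. Of 229 arms, 106 passed in seed_mut (46.3%), 47 higher and 59 lower in L1, and 98 passed in wild type (42.8%), 42 higher and 56 lower. Of these, 87 passed in both strains, which is 82.1% of the seed_mut calls and 88.8% of the wild-type calls, and all 87 had the same direction. The other 19 seed_mut calls and 11 wild-type calls had the same sign in the other strain. Across arms, which are not independent replicates, the changes of the strains had r = 0.954. How many arms count as higher or lower depends on the scaling. RLE factors gave 54 higher and 48 lower in seed_mut, TMM factors without the family 38 and 79, and spike-in scaling 38 and 15. In wild type the splits were 54 and 50 with RLE factors, 55 and 45 with library totals and 31 and 20 with spike-in scaling.

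**Figure D5:**
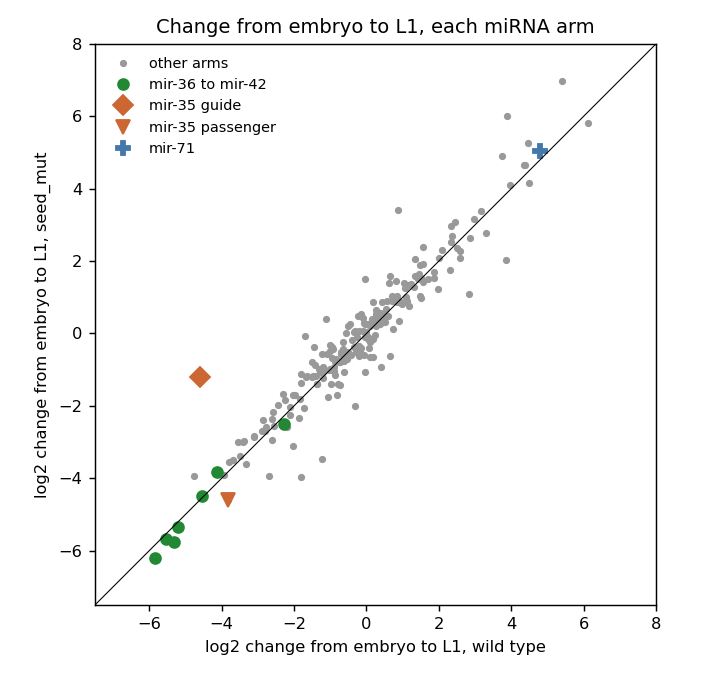
Log2 change from embryo to L1 in seed_mut against wild type for 229 miRNA arms, with the line of equal change. Most arms lie near the line; the mir-35 guide lies above it, at −1.22 in seed_mut and −4.61 in wild type, while the unedited family guides lie at −6.19 to −2.51 in seed_mut.

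Among the more abundant arms whose stages did not overlap, the largest rises in seed_mut L1 included known larval miRNAs. The guide of mir-71, a miRNA needed for long survival of larvae without food, measured 2702, 3514 and 1354 CPM in seed_mut embryos and 127059, 63729 and 58493 CPM in L1. Every L1 library was more than 10 times above every embryo library. It rose by 5.04 in seed_mut and 4.78 in wild type on the log2 scale. The others of these arms with large rises in seed_mut were mir-230_3p (5.25, against 4.46 in wild type), mir-34_5p* (4.16 and 4.48), mir-237 (4.11 and 3.98), mir-84 (3.37 and 3.17), mir-238 (3.15 and 2.96), mir-248 (2.96 and 2.33), mir-1821 (2.69 and 2.36), mir-243_3p (2.39 and 1.55) and mir-83 (2.37 and 2.49). Outside the mir-35 family, the more abundant arms that fell most in seed_mut were mir-4813_5p (−3.93 and −4.78), mir-52_3p* (−3.92 and −3.93) and mir-81_5p* (−3.61). Of the mir-35 family, the guides of mir-38 (−6.19), mir-36 (−5.76), mir-41 (−5.68), mir-37 (−5.34), mir-39 (−4.50) and mir-40 (−3.84) and the mir-35 passenger (−4.61) were among these falls. For the mir-35 passenger the L1 end was at the background of its sequence. Scarcer arms, such as mir-794 (4.67), were not ranked here. None of these passed the test of the difference of changes between the strains.

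Heterochronic miRNAs, among them lin-4 and let-7, time larval cell fates. The list of the let-7 family, lin-4 and miRNAs grouped with these had 8 arms tested. In seed_mut 5 rose (mir-794 by 4.67, mir-237 by 4.11, mir-84 by 3.37, lin-4 by 2.78 and mir-795 by 0.94) and mir-48 fell (−1.21), with a list median of 1.86. In wild type 4 rose and mir-48 fell (−1.50), with a median of 2.00. The call that differed was mir-795, at 0.94 in seed_mut (edgeR adjusted p = 0.0483) and 0.84 in wild type (0.0803). In embryos lin-4 was at 0.43 to 0.91 CPM in all 6 libraries and in L1 at 3.60 to 13.4 CPM. The background is that 20.5% of all arms passed as higher in seed_mut.

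The other families gave calls between stages in both directions in seed_mut, where 46.3% of all arms passed. In the mir-51 family, which is abundant throughout development, 1 of 6 guides passed (mir-51, −1.80 in seed_mut and −1.84 in wild type). Of 5 guides of the mir-64 family, mir-64 (−0.99 and −1.31) and mir-65 (−1.21 and −1.66) fell, and 1 rose, mir-63 (2.30 and 2.09). In the mir-58 family mir-80 rose in seed_mut (1.26, adjusted p = 0.0406) among 5 tested and was at 1.06 in wild type (0.0846). In the mir-44 family, where mir-44 and mir-45 share reads and are uncertain, mir-247 fell (−1.41 and −1.37) among 4. In the mir-2 family mir-43 (−1.14, adjusted p = 0.0432) and mir-797 (−3.48, 0.00108) fell in seed_mut among 4, and in wild type they were at −0.86 (0.132) and −1.22 (0.193). For mir-797 seed_mut levels were low, 1.63 ± 0.49 CPM in embryos and 0.126 ± 0.135 CPM in L1 (SD, n = 3 each), and the difference of changes was −2.26 (adjusted p = 0.999). No member of these families passed between the strains.

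The tissue markers did not pass between stages or strains. The muscle miRNA mir-1 measured 92652, 69349 and 114321 CPM in seed_mut embryos and 240015, 112410 and 84736 CPM in seed_mut L1 (log2 0.66, edgeR adjusted p = 0.163). The neuronal mir-124 stood at 8.12, 16.1 and 9.57 CPM in seed_mut embryos and at 6.39, 15.1 and 21.6 CPM in L1. The neuronal lsy-6 stood at 122, 291 and 65.7 CPM in seed_mut embryos and 58.6, 91.8 and 77.1 CPM in L1 (log2 −1.07, adjusted p = 0.0730). Stages overlapped in seed_mut for all 3 markers, and none was at 0.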

How the data were processed

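The authors deposited unscaled estimated counts for each miRNA arm, of which 510 values end in 0.5; these were rounded. Its 296 lines are 276 arms, 10 spike-ins and 10 edited mir-35 sequences. Per the submitters' processing notes the tools included HTSeq 0.13.5, Bowtie2 2.4.4, cutadapt 3.4, SAMtools 1.13 and DESeq2; the genome build and the counting options are not given in the sources used here. The series' design text is about another, Argonaute experiment and was left aside.

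The mir-35 of each strain was taken from its own allele sequence. One fit in edgeR 4.0.16 (R 4.3.3, robust quasi-likelihood) covered the 42 allele libraries in 14 groups, wild-type replicates 4 to 6 apart, with TMM factors, filterByExpr (minimum count 10, total 15) and no covariate; contrasts used only seed_mut and wild-type replicates 1 to 3. With 229 arms kept, the common biological coefficient of variation was 0.448, on 28 residual degrees of freedom. The script was tested on simulated data. Samples of the same number deviated together in all 12 pairs (correlation over 116 arms 0.115 to 0.850, limit 0.1), so the numbers were taken to pair the samples. The lowest correlation was little above the limit, and the labels do not say what a number shares. No molecular identifiers were used. Alternatives were DESeq2 1.42.0, TMM factors without the family, library totals, RLE factors, no filter, a minimum of 50 counts, replicate blocks, the 12 libraries alone, other wild-type replicates, summed mir-35 sequences, spike-in scaling and each library left out. When a library was left out the TMM reference library was kept. Leaving out embryo replicate 3 of both strains and using another TMM reference library were chosen after seeing the data.

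Named arms were mir-35, its family, up to 10 called arms each way with mean log2 CPM of at least 5 and no overlap of groups, up to 8 arms of smallest p within the same limit on mean log2 CPM where fewer than 5 passed, and list members. The members and lists were chosen with earlier results of these data known. Lists covered the guides and the passengers of the mir-35 family, its cluster relatives, and the families of mir-2, mir-44, mir-51, mir-58 and mir-64. They also covered lin-4 together with the let-7 family and miRNAs grouped with these, and markers of tissues. Ratios within libraries were compared by exact permutation (Python 3.11.15, scipy 1.17.1).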

Additional observations from a re-analysis of the deposited data

Results flagged for a closer look

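The wild-type mir-35 guide sequence was counted in seed_mut libraries, where the gene is edited, at a median of 217 CPM by library totals in embryos (205 to 396) and 224 CPM in L1 (190 to 244). Over all 15 libraries of edited strains per stage, seed_mut included, its median was 217 CPM in embryos (51.7 to 637). In L1 it was 144 CPM (38.6 to 487). Guide sequences of other edited alleles were also counted in seed_mut and wild-type libraries. These are data that no comparison above uses as its main measure. The seed_mut guide sequence was counted in wild-type replicates 1 to 3 at a median of 1.48 CPM in embryos and 0.555 CPM in L1, where a strain without the allele should have none. The source of either signal was not tested.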

How the results depend on the processing

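No result changed sign in a called comparison. The mir-35 difference between strains passed under every alternative in embryos and in L1, except in L1 with all mir-35 sequences summed (−2.23). The difference of the changes missed the threshold in the main analysis. It passed with DESeq2 (3.35), the replicate block (3.43) and the 12 libraries with the replicate block (3.35). It also passed with all 6 wild-type libraries per stage (3.85), wild-type replicates 4 to 6 (4.24) and summed sequences (4.27). The count of called arms became 1 in these fits, except that no count is given for summed sequences. With the 12 libraries and no block the adjusted p of this difference was 0.963 by edgeR. Each library left out in turn gave 2.66 to 4.66 for it and counts of 0 to 1. The mir-35 change in seed_mut passed with TMM factors without the family (−1.59), the replicate block (−1.34) and the 12 libraries with the block (−1.37), and ranged from −1.92 to −0.85 with a library left out; only without seed_mut L1 replicate 1 did it then pass. The block ended or made no other call of mir-35 or its passenger, and with it 119 arms passed between stages in seed_mut (53 higher, 66 lower) and 110 in wild type (48 and 62). The passenger's drop did not pass with summed sequences, at −1.59 in seed_mut and −1.75 in wild type. Spike-in scaling left 15 arms lower in seed_mut L1 and 20 in wild type. Summed sequences moved the log2 ratio of mir-35 to its cluster relatives to −6.25 in embryos, −1.96 in L1 and 4.28 for the change. The cause was not tested. Scaling moved the median of all arms by up to 0.97 in seed_mut between stages (spike-ins). Arms at a few counts, such as the L1 passenger, are limited by depth. The L1 passenger was also at the background of its sequence, and the source of that background was not tested.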
